A study of Mus musculus with 8 samples.

Results

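The genes described here are 10 immediate early transcription factors and feedback genes, Fos, Fosb, Jun, Junb, Atf3, Egr1, Ier2, Nr4a1, Dusp1 and Zfp36, measured in the ascending aorta of normal mice and of mice with mucopolysaccharidosis VII (MPS VII). In this inherited disorder lysosomes lack beta-glucuronidase, the enzyme that Gusb encodes, and undegraded glycosaminoglycans build up. The members were chosen as all probes whose platform annotation carries one of the 10 symbols, which gave 10 probes, 1 for each gene, of 25697 probes on the array. The arrays were Illumina expression arrays, 1 for each of 8 mice. The normal group held 3 C57BL/6 mice of 5.8, 6.4 and 7 months. The dilated group held 3 MPS VII mice of the same strain, aged 7.8, 9.1 and 6 months, whose ascending aorta had widened. The not dilated group held 2 MPS VII mice of that strain, aged 5.8 and 6.7 months, whose aorta had not widened. Every group held females and males, no agent was given to any mouse in the labels, and the labels state the genotype only as normal or MPS VII.

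Immediate early genes are switched on within minutes by growth factors, stretch and cell stress, through factors that are already present in the cell, and their transcripts decay fast. Fos and Jun proteins pair to form the transcription factor AP-1, which in vascular smooth muscle takes part in the response to mechanical load and injury. Dusp1 and Zfp36 are induced by the same signals and dampen them, one by removing phosphate from MAP kinases and the other by speeding the decay of cytokine transcripts.

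Promoter sequences are shown for 4 of the genes that were lower in dilated aorta and for Junb, which did not pass the test. They run from 250 bases before to 50 bases after the start of the gene, are written on the gene's strand and come from RefSeq (assembly GRCm38.p6). Fos lies at chr12:85473640-85473939 on the plus strand. The other windows lie on the minus strand, Atf3 at chr1:191183284-191183583, Dusp1 at chr17:26508423-26508722, Zfp36 at chr7:28379179-28379478 and Junb at chr8:84978699-84978998. Capitals mark matches, on either strand, to TGACGT (the core of the cyclic AMP response element, read ACGTCA on the other strand), to the CArG box (the site of serum response factor), to TGANTCA (the AP-1 site) or to TATAAA.
Fos promoter: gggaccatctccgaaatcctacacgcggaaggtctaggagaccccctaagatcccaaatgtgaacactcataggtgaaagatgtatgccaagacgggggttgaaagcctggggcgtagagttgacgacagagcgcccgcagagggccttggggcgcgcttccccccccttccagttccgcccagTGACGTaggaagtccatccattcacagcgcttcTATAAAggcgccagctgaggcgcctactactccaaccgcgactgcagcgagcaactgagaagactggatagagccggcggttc
Atf3 promoter: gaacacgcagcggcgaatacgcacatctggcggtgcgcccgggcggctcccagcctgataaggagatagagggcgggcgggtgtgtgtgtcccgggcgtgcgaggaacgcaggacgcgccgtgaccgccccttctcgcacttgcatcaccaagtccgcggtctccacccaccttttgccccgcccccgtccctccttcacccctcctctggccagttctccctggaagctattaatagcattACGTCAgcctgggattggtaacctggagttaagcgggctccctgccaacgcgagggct
Dusp1 promoter: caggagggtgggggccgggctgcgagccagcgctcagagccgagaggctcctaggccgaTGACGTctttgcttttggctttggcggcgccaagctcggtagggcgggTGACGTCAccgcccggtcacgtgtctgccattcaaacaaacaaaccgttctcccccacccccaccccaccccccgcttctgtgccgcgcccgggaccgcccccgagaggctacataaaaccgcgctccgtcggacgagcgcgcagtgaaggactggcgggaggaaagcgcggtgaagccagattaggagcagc
Zfp36 promoter: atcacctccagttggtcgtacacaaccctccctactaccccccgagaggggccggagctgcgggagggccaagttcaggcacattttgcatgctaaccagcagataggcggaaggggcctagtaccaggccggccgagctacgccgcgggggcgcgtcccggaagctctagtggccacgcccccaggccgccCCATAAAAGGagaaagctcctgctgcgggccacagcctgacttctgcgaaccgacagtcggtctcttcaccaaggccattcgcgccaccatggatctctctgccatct
Junb promoter: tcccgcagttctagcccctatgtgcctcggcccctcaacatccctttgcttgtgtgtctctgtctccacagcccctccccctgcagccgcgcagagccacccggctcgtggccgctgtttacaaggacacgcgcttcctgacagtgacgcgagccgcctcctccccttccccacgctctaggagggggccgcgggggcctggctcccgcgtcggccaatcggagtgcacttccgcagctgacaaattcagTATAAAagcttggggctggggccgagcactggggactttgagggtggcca
Windows of 8 of the 10 genes were searched, those of Fosb, Jun and Nr4a1 not being shown. No window of Egr1 or Ier2 was searched, so the counts do not cover them. TGACGT occurred in 3 of the 8 windows, those of Fos, Atf3 and Dusp1, and in 7.51% of all 32851 windows of 300 bases. In Dusp1 it occurred 3 times, and 2 of these matches overlap as both strands of 1 palindrome. The CArG box occurred in 1 of the 8, that of Zfp36, between positions -58 and -49 from the start, and in 1.63% of all windows. TATAAA occurred in Fos at -33 and in Junb at 1, and in 13.6% of all windows. TGANTCA occurred in 0 of the 8 and in 7.81% of all windows. A match describes the letters of the window only.

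The values are deposited intensities on a linear scale with the background already subtracted. An array was counted as above background for a probe when the intensity passed 25.6, and differences are on the scale of log2(intensity + 50). Gusb, the check of the labels, lay at 992 to 1172 on the normal arrays and at 112 to 218 on the 5 MPS VII arrays. Of the smooth muscle markers, Myh11 had a mean of 23137 in normal, 14298 in not dilated and 11842 in dilated aorta, Tagln means of 6178, 3816 and 3374, and Acta2 means of 50835, 46915 and 40909. The adipocyte marker Adipoq had means of 2817, 8175 and 8255 in that order. The endothelial marker Pecam1 has 2 probes that ran in opposite directions, the tested one with means of 432, 293 and 307 and the other with 269, 454 and 374, so no direction is given for it. The macrophage marker Cd68 was not analysed here. The cardiomyocyte marker Myh6 did not pass 56.3 on any array, and the leukocyte marker Ptprc was not above background on any array. Of the 10 genes, 8 were above background on at least 2 arrays and were tested among 10040 genes. Fosb reached the test through 3 normal arrays and 1 not dilated array, so a difference was built into its inclusion. Ier2, a nuclear protein of the early growth response, did not exceed 4.13 on any array, and Nr4a1, an orphan nuclear receptor, did not exceed 5.53. Both were not above background on all 8 arrays and give no comparison between groups.

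**Figure D1:**
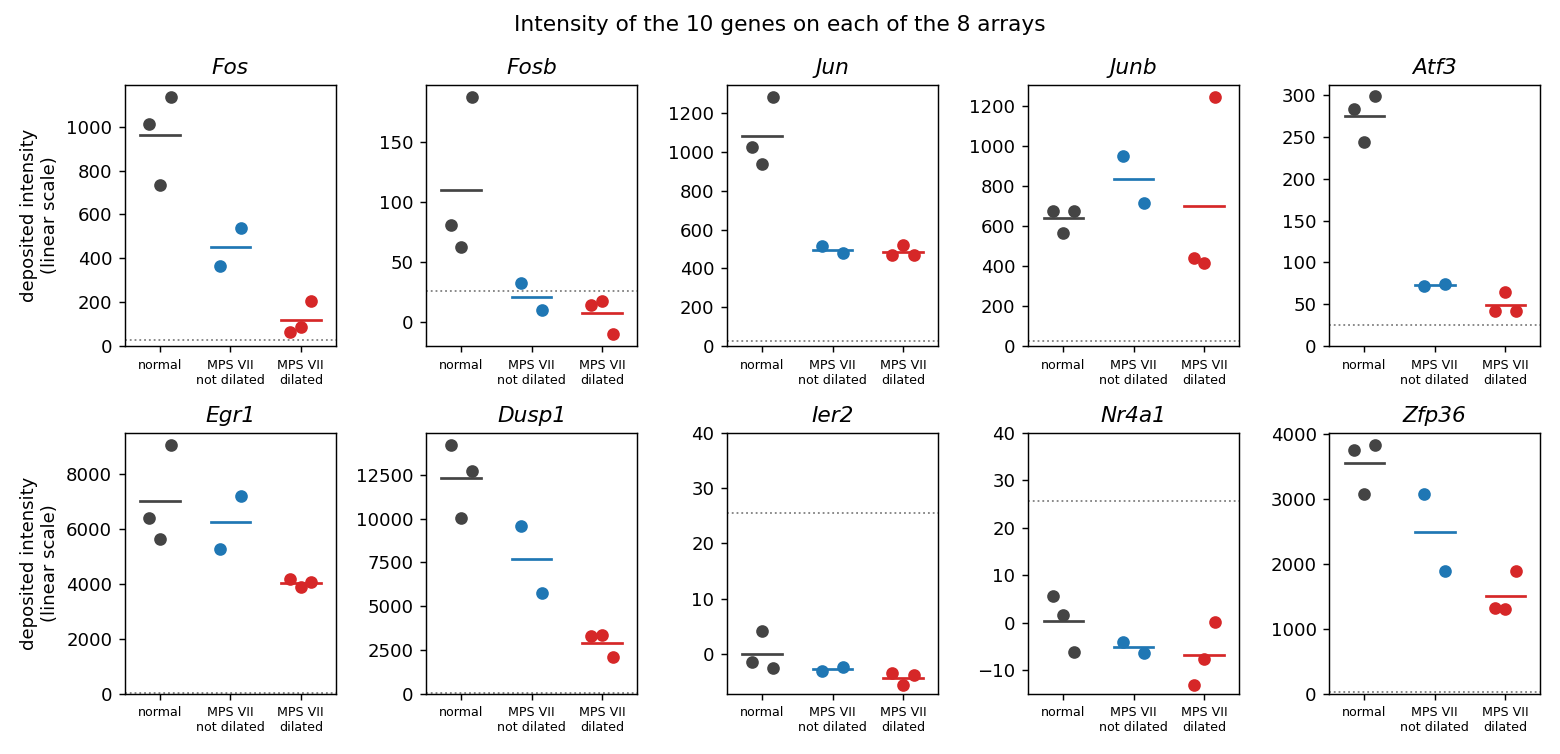
Deposited intensity (linear scale, vertical axis) of each of the 10 genes in normal, not dilated MPS VII and dilated MPS VII aorta; a point is 1 mouse, the bar is the group mean and the dotted line is the background limit of 25.6. Fos, Jun, Atf3, Dusp1 and Zfp36 lie lower on all 5 MPS VII arrays than on the 3 normal arrays, Junb overlaps between dilated and normal aorta, and Ier2 and Nr4a1 stay below the line.

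Dilated MPS VII aorta was compared with normal aorta to ask what differs in the widened vessel. Of the 8 genes tested, 7 fell and 0 rose (limma, Benjamini-Hochberg adjusted p under 0.05), while 10.4% of all 10040 genes were called lower and 9.81% higher. Without Fosb, which had no dilated array above background, 6 of 7 fell, and 10.8% of all genes were called lower when genes tested only through their higher group were left out in the same way, a count added after the data were seen. The largest falls of the 8 were those of Fos and Dusp1, and Junb did not pass. The median log2 difference of the 8 genes was -1.34 (-1.23 without Fosb), against -0.054 over all genes tested. The members were chosen with earlier results of these data known. Their counts and medians in each comparison thus describe them and are no independent test. For 7 of the 8 every dilated array was below every normal one, where 24.6% of all genes had that order. The labels name a separate mouse for each array, so the spread is that between mice.

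Among the AP-1 genes, Fos, which pairs with Jun proteins, had intensities of 1013, 735 and 1137 in the normal aortas. In the dilated aortas it stood at 62.4, 87.0 and 207, so the highest dilated value was below the lowest normal one by a wide margin. Fos fell by 2.66 on the log2 scale (SE 0.30, limma adjusted p = 0.000969), and 0.0498% of the genes tested had a difference as low or lower. Its relative Fosb stood at 80.4, 62.1 and 188 in normal aorta. In dilated aorta Fosb was at 14.0, 17.5 and -10.1, not above background on any of the 3 arrays. Fosb was at least 2.00-fold lower in dilated aorta (limma adjusted p = 0.0129), but it was tested only because of the arrays where it is high, so its p supports nothing further. The fold is a bound set by the background limit on the log2(intensity + 50) scale, as are the other folds given as at least a value.

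Jun, the partner of Fos, went from 1026, 936 and 1282 in the normal aortas to 466, 519.6 and 469.7 in the dilated ones. The 3 dilated values lay close together and well below the normal ones. Jun fell by 1.07 on the log2 scale (SE 0.14, limma adjusted p = 0.00162). Atf3, a stress-induced factor of the ATF family that can pair with Jun, went from 283, 244 and 299 to 41.4, 65.0 and 41.8. It fell by 1.71 (SE 0.13) and had the smallest adjusted p of the 8 genes (limma adjusted p = 0.000255). These dilated values were above background on every array but near enough to it that the offset of 50 reduces the log2 difference.

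Junb, an AP-1 member with a weaker ability to activate transcription than Jun, did not follow the others. It stood at 675, 565 and 678 in normal aorta and at 440.1, 415 and 1245 in dilated aorta. Dilated replicates 1 and 2 lay below all normal arrays and dilated replicate 3 above all of them. The log2 difference was -0.045 with a 95% interval of -0.83 to 0.74 (limma adjusted p = 0.937). Without dilated replicate 3 it was -0.53, which also did not pass the test (limma adjusted p = 0.0591).

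Egr1 is a zinc finger factor induced by serum and by mechanical stress. Its intensity was 6401, 5641 and 9047 in normal aorta and 4180.1, 3896 and 4068 in dilated aorta. The 3 dilated arrays lay in a narrow range below the normal arrays, with an SD of 143 against 1788. Egr1 fell by 0.76 (SE 0.19, limma adjusted p = 0.0236), the smallest of the 7 falls. This call ended without normal replicate 1 or 3 or dilated replicate 2 or 3, where the limma adjusted p lay between 0.0532 and 0.0659.

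Both feedback genes were lower. Dusp1, also called MKP-1, removes phosphate from p38, JNK and ERK kinases. It stood at 14201, 10032 and 12718 in normal aorta and at 3299, 3351 and 2099 in dilated aorta. Dusp1 fell by 2.08 (SE 0.24, limma adjusted p = 0.0011), with every dilated array below every normal one. Zfp36, or tristetraprolin, which binds AU-rich stretches of cytokine transcripts, went from 3744, 3079.7 and 3828 to 1313, 1298 and 1882. It fell by 1.23 (SE 0.21, limma adjusted p = 0.00574), again without overlap.

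Markers of other cell types moved with the same groups. For the counts that follow, 10.4% of all genes were called lower and 9.81% higher in dilated aorta. In the contractile smooth muscle list, 11 of 12 markers were lower in dilated aorta and 0 higher, and their summed intensity was 117463 to 147144 in normal, 77417 to 103688 in not dilated and 53996 to 98182 in dilated aorta. In the macrophage list 7 of 8 tested markers were higher, with sums of 1543 to 2789.9, 4173 to 7158 and 11484 to 15179 in the same order. The remaining marker, Cd163, ran the other way, with means of 355, 190 and 223, and did not pass in dilated aorta. In the adipocyte list 5 of 7 were higher, with sums of 9766 to 22807, 38094 to 61080.2 and 37460 to 52640.2. In the endothelial list 4 of 9 were higher (sums of 3457 to 5055, 5558 to 6639 and 4829 to 10400.3), and in the adventitial fibroblast list 4 of 8 were lower (39058 to 39939.7, 24366 to 32243 and 29009.9 to 36484). Without 2 endothelial markers tested only through their higher group, 3 of 7 were higher, against 8.68% of all genes counted in that way. In the list of leukocytes and lymphocytes 0 of 3 passed, with sums of 252 to 377, 356 to 974 and 248 to 625. With whole aorta, fewer cells of a type and less RNA per cell cannot be told apart. When the adipocyte list's mean log2 value was added as a covariate, 4 of the 7 genes were still called lower, namely Fos, Atf3, Dusp1 and Zfp36, while 1.28% of all genes were called in either direction, against 20.2% without it. Under that covariate the log2 differences of Jun, Fosb and Egr1 were -1.21, -1.52 and -0.70, with limma adjusted p of 0.0685, 0.239 and 0.342. The adipocyte values of normal and MPS VII arrays did not overlap, so this covariate cannot separate fat content from disease. Which genes kept or lost their call under it therefore does not show which depend on fat. The part of smooth muscle and macrophage content in the result was not tested.

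**Figure D2:**
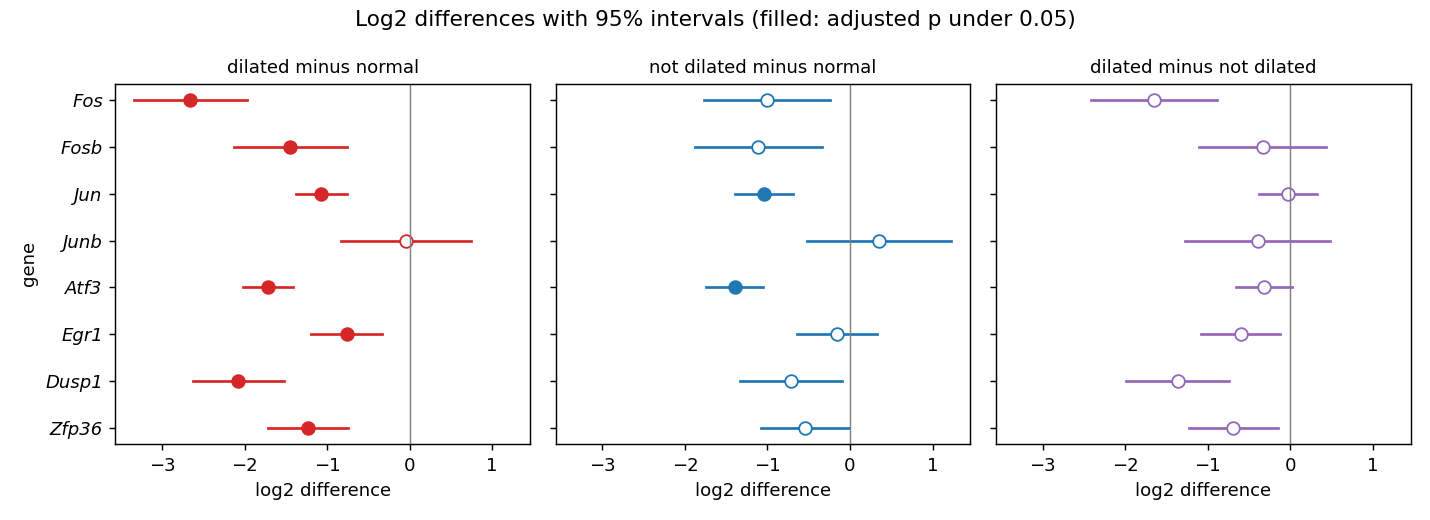
Log2 differences (horizontal axis, scale of log2(intensity + 50)) of the 8 tested genes in 3 comparisons, with 95% intervals; filled points have a limma adjusted p under 0.05. In dilated minus normal, 7 genes are filled and lie below 0; in not dilated minus normal, Jun and Atf3 are filled; in dilated minus not dilated, 0 are filled, and the intervals of Fos, Dusp1, Egr1 and Zfp36 lie below 0.

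The not dilated MPS VII aortas were set against the same 3 normal aortas to ask what differs where the vessel has not widened. Of the 8 genes, 2 fell, Jun and Atf3, and 0 rose, while 5.18% of all genes were called lower and 4.84% higher, or 10% in either direction. The median log2 difference was -0.86, against -0.059 over all genes. For 6 of the 8 genes both not dilated arrays were below every normal array, where 30.5% of all genes had that order. For Junb both were above every normal array, where 20.2% of all genes had that order.

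Jun stood at 515 and 477 without dilatation, and fell by 1.04 (SE 0.15, limma adjusted p = 0.0109). Atf3 stood at 71.7 and 74.2, and fell by 1.40 (SE 0.15, limma adjusted p = 0.00372). The call of Jun ended without not dilated replicate 1 (limma adjusted p = 0.0547), and both calls ended with the adipocyte covariate (0.229 and 0.137). Fos, at 367 and 540.0, lay below all normal arrays and its log2 difference of -1.01 (95% interval -1.77 to -0.25) missed the threshold after adjustment (limma adjusted p = 0.0862). Fosb, at 32.3 and 9.64, had a log2 difference of -1.11 (limma adjusted p = 0.0685) and was above background on 1 of the 2 arrays. Neither passed, although all of their values were below the normal ones.

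The feedback genes lay between the other groups. Dusp1 stood at 9563 and 5774, with a log2 difference of -0.71 (95% interval -1.33 to -0.091, limma adjusted p = 0.12). Zfp36 stood at 3077 and 1887, with a log2 difference of -0.54 (limma adjusted p = 0.158), and not dilated replicate 1 was just below the lowest normal array. These differences rest on the 2 not dilated arrays: for Dusp1 the value was -0.35 without not dilated replicate 2 and -1.07 without replicate 1, and for Zfp36 -0.20 and -0.89. Not dilated replicate 1 was the higher of its group for both feedback genes, whereas replicate 2 was the higher for Fos and Egr1. Egr1, at 5272 and 7209.8, overlapped with normal aorta (log2 difference -0.16, 95% interval -0.64 to 0.32, limma adjusted p = 0.641). Junb, at 949 and 718, was above all normal arrays, and its log2 difference of 0.35 missed the threshold (95% interval -0.53 to 1.23, limma adjusted p = 0.567).

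Dilated and not dilated MPS VII aortas were compared directly to ask whether the genes follow dilatation within the disease. Of the 8 genes 0 passed, and 0% of all 10040 genes did. At an unadjusted p under 0.05, 4 of the 8 genes and 909 of all genes passed. All 8 log2 differences were below 0, with a median of -0.50 against 0.0034 over all genes. For 5 of the 8 every dilated array was below both not dilated ones, where 11.4% of all genes had that order.

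Fos had a log2 difference of -1.65 between these groups (95% interval -2.41 to -0.89, limma adjusted p = 0.213), and 0.0199% of the genes tested had a difference as low or lower. Dusp1 had one of -1.37 (95% interval -1.98 to -0.75, limma adjusted p = 0.213). Both intervals lie below 0 before adjustment over all genes. The difference of Dusp1 passed in 1 of 22 alternatives, that with sex as a covariate (-1.46, limma adjusted p = 0.0201), and in the other 21 it did not. Zfp36 and Egr1 had log2 differences of -0.69 and -0.60 (95% intervals -1.23 to -0.15 and -1.08 to -0.12). Without not dilated replicate 1 they were -0.34 for Zfp36 and -0.83 for Egr1, and without replicate 2 they were -1.04 and -0.38. Jun differed by -0.029 between the MPS VII groups, with an interval of -0.38 to 0.32, and Atf3 by -0.31 (interval -0.65 to 0.025). The order of the group means was thus normal, not dilated, dilated for Fos, Fosb, Jun, Atf3, Egr1, Dusp1 and Zfp36. Of these, Fos, Atf3, Dusp1 and Zfp36 had no overlap between neighbouring groups. The share of all genes with that order was not counted, so it has no background beside it. For Zfp36 the gaps were very narrow. Its lowest normal value was 3079.7 and its highest not dilated value 3077. Its lowest not dilated value was 1887 and its highest dilated value 1882. Egr1 overlapped between normal and not dilated aorta, and Jun and Fosb overlapped between the MPS VII groups.

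**Figure D3:**
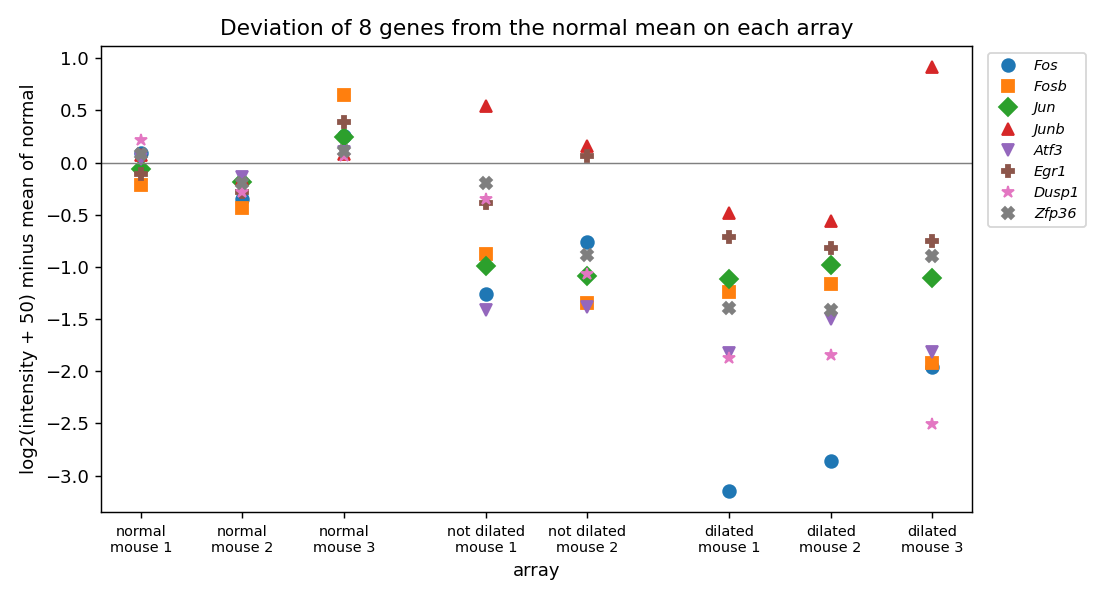
Difference of log2(intensity + 50) from the mean of the 3 normal arrays (vertical axis) for the 8 tested genes on each of the 8 arrays (horizontal axis); each symbol is 1 gene. Dilated mice 1 and 2 have all 8 genes below 0, dilated mouse 3 has 7 below and Junb above, and the not dilated mice lie between these and the normal mice for Fos and Dusp1.

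Array by array, all 8 genes lay below every normal value on dilated replicates 1 and 2, and 7 did on dilated replicate 3. On the not dilated arrays 7 and 6 genes lay below every normal value. The share of all genes below every normal value was not counted for single arrays, so these counts have no background beside them. The mean over the 8 genes of the difference from the normal mean was -1.48, -1.39 and -1.26 on the dilated arrays. It was -0.62 and -0.79 on the not dilated arrays, and ranged from -0.25 to 0.24 on the normal arrays. Normal replicate 3 gave the highest value of any array for 6 of the 8 genes. The single array with the highest Junb, dilated replicate 3, also had the highest Fos and Zfp36 of its group and the lowest Dusp1.

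With both MPS VII groups averaged with equal weight and set against normal aorta, 6 of the 8 genes fell and 0 rose, while 13.3% of all genes were called lower and 11.1% higher, or 24.3% in either direction. For these 6 all 5 MPS VII arrays were below every normal array, where 19.6% of all genes had that order. They were Fos, Fosb, Jun, Atf3, Dusp1 and Zfp36, with log2 differences of -1.83, -1.28, -1.06, -1.56, -1.39 and -0.89. Fosb was above background on 1 of 2 not dilated and 0 of 3 dilated arrays, so a difference was built into its inclusion here too. Egr1 had one of -0.46 (limma adjusted p = 0.0794) and Junb one of 0.15 (limma adjusted p = 0.741). The call of Zfp36 ended without normal replicate 1 or 3 (limma adjusted p = 0.0509 and 0.0564).

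Other genes of the same response did not move as 1 block. In dilated minus normal, 0 of 9 tested AP-1 and ATF relatives fell and 1 rose, 5 of 33 other immediate early genes fell and 7 rose, and 3 of 23 other feedback genes fell and 3 rose. The medians of these lists were -0.15, -0.23 and -0.13 on the log2 scale. Together, 12.3% of these 65 genes were lower and 16.9% higher. Of the 65, 7 had no array above background in the lower group and were tested only through the higher one. Without these 7, 13.8% were lower and 13.8% higher, against 10.8% and 8.68% of all genes counted in that way. Without dilatation 3 of the 65 were lower and 2 higher, where 5.18% of all genes were called lower and 4.84% higher. Leaving out 6 that were tested there only through their higher group, 3 of 59 were lower and 1 higher. Counted in that way, 5.42% of all genes were called lower and 4.55% higher.

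Among the relatives, Batf, a factor that pairs with Jun proteins, was not above background in normal aorta and reached it on 2 of 3 dilated arrays (at least 1.07-fold higher, limma adjusted p = 0.0422). Batf was tested only through those 2 arrays, and so were Snai1, Dusp2 and Thbs1, described next, only through MPS VII arrays, so that a difference was built into their inclusion. Among the other immediate early genes, Csrnp1, a nuclear protein, went from 1384 ± 178 (SD, n = 3) to 566 ± 62.7 (log2 difference -1.22, limma adjusted p = 0.00944). Sgk1, a kinase induced by serum and glucocorticoids, went from 10289 ± 900.3 to 5092 ± 1329 (log2 difference -1.04, limma adjusted p = 0.022). Moving the other way, Gadd45a, a growth arrest gene, rose by 1.40 (SE 0.38, limma adjusted p = 0.031). Snai1, a repressor of epithelial genes, had no normal array above background and rose at least 1.76-fold with dilatation (limma adjusted p = 0.0173). Ier3 fell by 0.66 without dilatation, from 2922 ± 202 to 1831 ± 95.2 (limma adjusted p = 0.0366), but not in dilated aorta (log2 difference 0.015, limma adjusted p = 0.947).

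The MAP kinase phosphatases moved in different directions. Dusp8, which acts on JNK and p38, went from 1149 ± 84.8 in normal aorta to 321 ± 135 in dilated aorta (log2 difference -1.76, SE 0.27, limma adjusted p = 0.0035). It stood at 391 and 249 without dilatation, a fall of 1.72 on the log2 scale (limma adjusted p = 0.0148). Dusp4 rose by 0.70 in dilated aorta (limma adjusted p = 0.0287). Dusp2 had no normal array above background and rose at least 1.85-fold without dilatation (limma adjusted p = 0.00787). In dilated aorta it rose at least 1.36-fold (limma adjusted p = 0.013). Of the remaining feedback genes, Socs2, a suppressor of cytokine signalling, fell by 1.17 and Tob2, an antiproliferative protein, by 0.96 in dilated aorta (limma adjusted p = 0.0118 and 0.0421).

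Upstream of the members, 2 of 13 tested kinases and factors fell and 0 rose, in both comparisons with normal aorta, which share the normal arrays. Of all genes, 10.4% were called lower in dilated and 5.18% in not dilated aorta, and a list of 13 is too short to set apart from these shares. Crtc3, a coactivator of CREB, went from 401 ± 30.5 to 142 ± 35.5 in dilated and 172 ± 24.7 (n = 2) in not dilated aorta (log2 differences -1.25 and -1.02, limma adjusted p = 0.00156 and 0.0148). Mapk8, the JNK1 kinase that phosphorylates Jun, went from 332 ± 59.3 to 204 ± 43.9 and 166 ± 0.44 (log2 differences -0.59 and -0.81, limma adjusted p = 0.0383 and 0.0327). Srf, the factor that binds the CArG box, missed the threshold in dilated aorta (log2 difference -0.52, limma adjusted p = 0.102). It was named after its values were seen.

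Of 8 tested secreted products of the response, 1 fell and 1 rose in dilated aorta, where 10.4% of all genes were called lower and 9.81% higher. Without the 2 that were tested only through their higher group, 1 of 6 fell and 0 rose. Counted in that way, 10.8% of all genes were called lower and 8.68% higher. Ccn1, a matricellular protein, went from 1057 ± 49.3 to 394 ± 147 (log2 difference -1.37, limma adjusted p = 0.0104). Thbs1, or thrombospondin, had no normal array above background and rose at least 1.46-fold with dilatation (limma adjusted p = 0.0044). In the heat shock list 4 of 12 fell and 0 rose. Hspa1a, an inducible chaperone whose transcript is near-identical to that of Hspa1b, so that the 2 cannot be separated with certainty, stood at 1432, 1345 and 740.1 in normal aorta. It stood at 184, 251 and 71.2 in dilated aorta and at 257.5 and 257.1 without dilatation (log2 differences -2.53 and -1.94, limma adjusted p = 0.0019 and 0.0204). Hsph1 fell by 1.04, Dnajb4 by 0.93 and Hspe1 by 0.42 in dilated aorta (limma adjusted p = 0.0118, 0.00863 and 0.0295). Without dilatation 3 of the 12 fell, where 5.18% of all genes were called lower. Among the 3 was Hsph1, which fell by 1.00 (limma adjusted p = 0.0363).

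**Figure D4:**
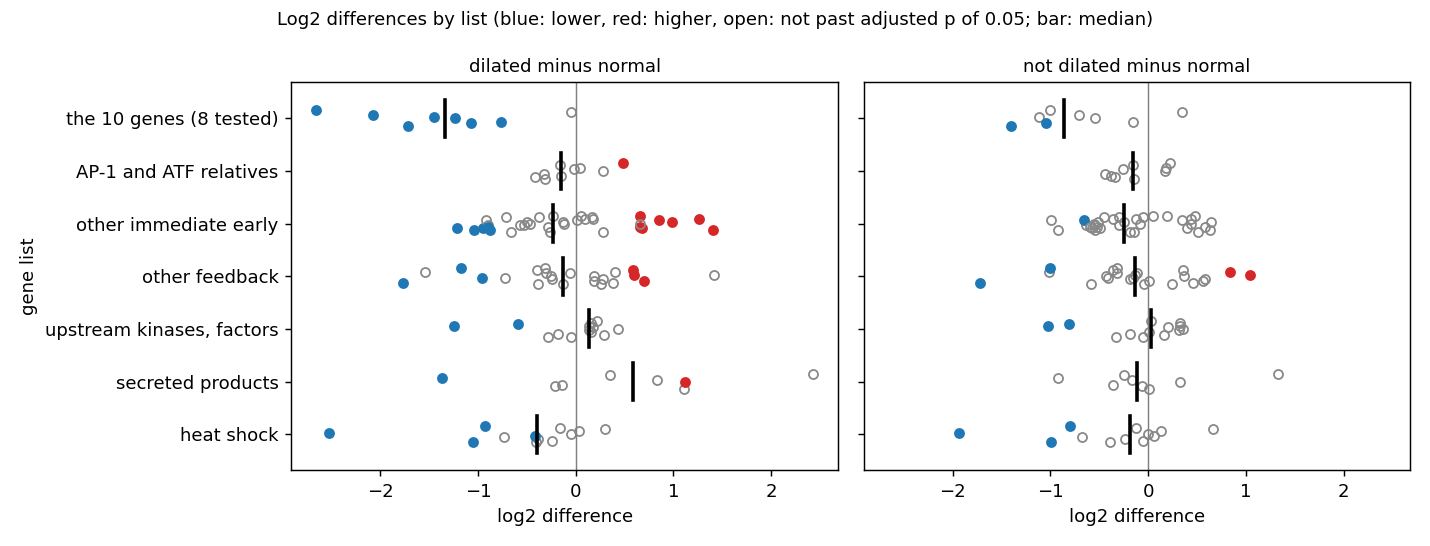
Log2 differences (horizontal axis, scale of log2(intensity + 50)) of the 8 tested genes and of 6 lists of related genes in dilated minus normal and not dilated minus normal; a point is 1 gene, blue is lower and red higher at a limma adjusted p under 0.05, open points did not pass, and the bar is the list median. The 8 genes have a median of -1.34 in dilated aorta, while the other immediate early list holds 5 lower and 7 higher genes.

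The genes whose pattern over the 8 arrays was most like the mean of the 8 standardised genes were Yipf4 (Pearson r = 0.981), Ncoa1 (0.969), Mrpl23 (0.969), Dclk3 (0.965), Npepl1 (0.962) and Gpc6 (0.961). These correlations run across 3 groups that differ in level and describe the likeness only. Among the 8 genes themselves, Fos and Zfp36 lay closest to that mean (0.962 and 0.958) and Junb farthest from it (0.199).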

How the data were processed

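RNA of 8 ascending aortas was extracted with Trizol and labelled as biotinylated cRNA for Illumina arrays, per the labels' protocols. The deposited values are intensities on a linear scale. The submitters' processing notes list GenomeStudio and Partek without saying what each did, so how the authors went from scanner to table is unknown here. The values show a background subtracted (27.8% to 28% lie below 0 on each array) and arrays brought to 1 distribution (medians 17.7 to 18.0), so a change in total RNA cannot be seen. The 16 value columns of a second table match no single sample by name and were not used.

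The background limit of 25.6 is the one-sided 0.01 bound of noise with an SD of 11.0, taken from the values below 0; 45.0% to 45.2% of probes passed it on each array. Probes above it on at least 2 arrays were kept (12913), and each gene was represented by its brightest kept probe. Symbols come from the platform annotation through Entrez identifiers in RefSeq GRCm38.p6. Group means of log2(intensity + 50) were fitted for 10040 genes over all 8 arrays with limma 3.58.1 with R 4.3.3, and p-values are two-sided with Benjamini-Hochberg adjustment over all genes. An exact permutation test of 3 arrays against 3 cannot go below p = 0.1, so p-values rest on the model. The model was run on simulated data with independent normal noise for each gene, which cannot show how well it fits these arrays. The number of arrays limits the precision. Where a group has no array above background, the fold is the bright group's mean log2 value against, per array of the dim group, the higher of the limit and the value.

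The members, the gene lists and the alternatives were chosen with earlier results of these data known. Genes outside the members were named by rule: up to 4 per list with the largest difference among those called in dilated aorta, up to 2 without dilatation, and the 6 most like the members' mean.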

Additional observations from a re-analysis of the deposited data

How the results depend on the processing

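The number of the 10 genes called in dilated minus normal was 7, and it was 6 to 7 when any 1 array was left out and 7 in 13 of 14 other alternatives, the exception being 4 with the adipocyte list mean as a covariate. In not dilated minus normal it went from 2 to 3 with a floor of 16 or with age, 4 with array quality weights, 4 with sex and 0 with the adipocyte covariate, and to 1 to 4 when 1 array was left out (1 without not dilated replicate 1, 4 without dilated replicate 3). In dilated minus not dilated it went from 0 to 1 with sex as a covariate. In MPS VII minus normal it went from 6 to 7 with array quality weights, where Egr1 passed (-0.41, limma adjusted p = 0.0454), and to 2 with the adipocyte covariate, and was 5 to 6 when 1 array was left out. The titles' replicate numbers name different mice, so the numbers were not taken as pairs. Deviations of same-numbered arrays correlated at -0.19 to 0.037 between normal and dilated, at 0.33 and 0.30 between normal and not dilated, and at -0.15 and 0.0015 between not dilated and dilated arrays. The 2 not dilated arrays deviate from their mean by equal and opposite amounts, so the values that involve them are not independent. These correlations do not settle whether arrays were paired. With the replicate block the counts were 7, 2, 0 and 6, as without it.

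Sign changes occurred only in differences that did not pass. For Junb, dilated minus normal was 0.015 with cyclic loess, 0.49 with age and -0.53 to 0.21 with 1 array left out; not dilated minus normal was -0.77 with the adipocyte covariate; dilated minus not dilated was 0.20 with age; MPS VII minus normal was -0.056 with array quality weights, -0.92 with the adipocyte covariate and -0.087 to 0.28 with 1 array left out. For Jun, dilated minus not dilated was 0.015 with array quality weights and -0.078 to 0.021 with 1 array left out. For Egr1, not dilated minus normal was -0.38 to 0.065 with 1 array left out. The causes were not tested. Of the other named genes, 110 of 568 values under alternatives no longer passed, most often Mapk8 in dilated aorta (12 of 22 alternatives), Ier3 (11), Tob2 (10) and Batf (10 of 19).

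Of all genes, 2031 were called in dilated minus normal, against 1095 without normal replicate 1, 1171 without normal replicate 3, 3320 with array quality weights and 129 with the adipocyte covariate. In not dilated minus normal 1006 were called, against 301, 554 and 196 without normal replicates 1, 2 and 3, 81 and 570.0 without not dilated replicates 1 and 2, 1559 without dilated replicate 3 and 2 with the adipocyte covariate. In MPS VII minus normal 2444 were called, against 1324 and 1179 without normal replicates 1 and 3, 1553 without not dilated replicate 1 and 37 with the adipocyte covariate. In dilated minus not dilated 0 to 19 were called. A start from unnormalized signals with neqc was not run, since their columns could not be matched to samples.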

Other observations

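Cxcl1, a neutrophil chemokine on the list of secreted products, was not above background on any normal array. It stood at 65.0 and 118 without dilatation and at 27.7, 83.4 and 2487 in dilated aorta, and its dilated minus normal difference missed the threshold (limma adjusted p = 0.13). Klf2, a flow-induced factor of endothelium, stood at 1625, 1447 and 1730.4 in normal aorta, at 1664 and 754 without dilatation and at 814, 875 and 736 in dilated aorta (log2 difference of dilated minus normal -0.94, limma adjusted p = 0.026). For Klf2, Csrnp1 (1306 and 624), Tob2 (2646 and 1138) and Sgk1 (7351 and 3969) the value of not dilated replicate 2 lay closer to the dilated arrays than that of replicate 1. Klf2, Cxcl1 and this set of 4 genes were chosen after their values were seen.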
